A study of Mus musculus with 2 samples.

Results

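Expression of the 4 genes TGM4, SPRR1A, SOSTDC1 and KLF4 was followed in the prostate of TRAMP mice and of their non-transgenic littermates. The genes were chosen by their measured values, since all of them are on the study's list of transcripts lower in TRAMP mice. For each gene, the row of the deposited array table was taken whose log2 signals equalled the listed pair of values to 6 decimals in both samples. Each of the 4 pairs was found on 1 row, which gave 4 of the 35557 rows of the table. The same values that chose the rows are described here, so that the direction of the 4 differences is fixed by the choice and was not tested.

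The TRAMP group carries a transgene in which the probasin promoter of the rat, active in prostate epithelium under androgen, drives the large T antigen of simian virus 40, and these mice develop prostate adenocarcinoma. The comparison group is wildtype at the transgene. Both groups are on the C57BL/6 background, both had been given vehicle according to the labels, and both were 20 weeks old. The tissue is the dorsolateral prostate by the study's methods, and the labels call it normal prostate gland and primary prostate cancer. A dissected lobe of a TRAMP mouse holds tumor together with benign glands and stroma. The methods name 3 non-transgenic and 4 TRAMP mice, the labels state that RNA was pooled, and the table holds 1 sample of each group. No spread between mice can be estimated from 1 sample per group, so no error and no p-value is attached to any value, and the number of arrays limits the precision.

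The luminal cells of the prostate are secretory, and their products mix with those of the seminal vesicle to form the ejaculate. TGM4 is a transglutaminase that these cells secrete under androgen, and in rodents it cross-links seminal vesicle proteins into the copulatory plug. SPRR1A is a small proline-rich protein that other transglutaminases cross-link into the cornified envelope of squamous epithelia. SOSTDC1 is a secreted antagonist of bone morphogenetic proteins that also modulates WNT signaling, and KLF4 is a zinc finger transcription factor that promotes the differentiation of epithelial cells. TGM4 is the only one of the 4 genes known for a function particular to the prostate.

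The rows that hold the values do not carry the names of these genes. In the deposited table the row of the TGM4 values is named Map2k2, that of the SOSTDC1 values Prcc and that of the KLF4 values Olfr1186, whereas that of the SPRR1A values has no gene name. Of the 4 rows, 0 carry the name of the gene whose values they hold. The name and the values of a row are therefore out of step in at least one of the sources, and which of them is right was not tested. Below, "the TGM4 row" means the row that holds the TGM4 values, and the row named Tgm4 is given beside it.

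The sequences below are listed under the gene names and were not matched to the array rows. Quantitative RT-PCR, which was not analysed here, used the following primers, written 5′ to 3′.
TGM4 forward: cagtctggcgtagaggttattc
TGM4 reverse: ccacggattgaagagaaggtag
SPRR1A forward: ctgaagacctgatcaccagatg
SPRR1A reverse: gtgcaaggagagagggattaag
SOSTDC1 forward: cacagtccacagtgcagaa
SOSTDC1 reverse: gggaatgagagagagatgaatgg
KLF4 forward: cccttcggtcatcagtgttag
KLF4 reverse: ggaccgcctcttgcttaat

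The primers are 19 to 23 bases long, and 47.8% to 52.6% of their bases are G or C. They were not matched to transcripts here.

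Promoter sequences from RefSeq on the mouse build GRCm38.p6 were at hand for 3 of the 4 genes, TGM4, SPRR1A and KLF4. They are shown because the 4 genes are listed as lower together, and each run is the 250 bases before the transcription start on the strand of the gene. Capitals mark the TATA box TATAAA, the GC box GGGCGG, the AP-1 site TGAGTCA and the hexamer TGTTCT of the androgen response element, searched on both strands.
TGM4, chr9:123034491-123034740, plus strand: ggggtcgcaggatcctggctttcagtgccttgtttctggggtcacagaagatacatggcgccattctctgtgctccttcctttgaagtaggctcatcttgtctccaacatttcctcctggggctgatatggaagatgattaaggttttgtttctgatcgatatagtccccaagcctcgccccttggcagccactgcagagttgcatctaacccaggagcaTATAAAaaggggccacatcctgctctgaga
SPRR1A, chr3:92485882-92486131, minus strand: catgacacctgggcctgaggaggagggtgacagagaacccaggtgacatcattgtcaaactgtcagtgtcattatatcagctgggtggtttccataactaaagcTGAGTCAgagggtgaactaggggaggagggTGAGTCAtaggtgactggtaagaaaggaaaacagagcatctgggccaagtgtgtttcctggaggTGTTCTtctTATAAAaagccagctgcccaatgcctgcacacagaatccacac
KLF4, chr4:55532476-55532725, minus strand: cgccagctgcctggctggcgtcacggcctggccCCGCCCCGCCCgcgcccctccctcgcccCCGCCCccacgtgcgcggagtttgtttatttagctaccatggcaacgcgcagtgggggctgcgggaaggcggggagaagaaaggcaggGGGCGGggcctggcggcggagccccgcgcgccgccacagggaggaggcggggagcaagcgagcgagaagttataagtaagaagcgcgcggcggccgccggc

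The 3 promoters share none of the 4 motifs among all of them. TGM4 has TATAAA 30 bases before the start and SPRR1A has it 43 bases before, and 12.4% of the 32851 RefSeq promoters of this length hold it. SPRR1A has 2 copies of TGAGTCA, the binding sequence of JUN and FOS dimers, at 146 and 116 bases before the start, a motif held by 4.46% of promoters. It also has TGTTCT at 52 bases before, which 16.1% of promoters hold. KLF4 has 4 copies of GGGCGG, the sequence bound by the SP and KLF family, of which 3 are on the opposite strand and the outermost pair overlap by a base. This motif is held by 32.7% of promoters. In base composition the KLF4 promoter, with 74.0% G and C, is above 95.1% of promoters, whereas TGM4 has 50.8% and SPRR1A 49.6%. A match of letters is no evidence of binding.

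TGM4 had the lowest difference of the 4 genes. On the TGM4 row, transcript cluster 10364971, the log2 signal was 8.07 without the transgene and 6.10 with it, which gave a log2 difference (TRAMP minus non-transgenic) of -1.97. The linear signal was 268 without the transgene and 68.4 with it, so that 25.5% of the non-transgenic signal was left. A transcript cluster is a set of probes summarized into 1 row, which can carry the names of more than 1 gene. Its signal can be set against itself in the other sample but not against that of another cluster. Only 8 of the 35557 rows had a lower difference. The row named Tgm4 gave 5.59 on the log2 scale without the transgene and 5.94 with it, a difference of 0.34 in the other direction.

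The SPRR1A row, transcript cluster 10416927, read 7.30 on the log2 scale without the transgene and 6.45 with it. The difference was -0.85, which is 1.81-fold lower, from 158 to 87.5 on the linear scale. In the study's methods the full name given for this gene is that of small proline-rich protein 1B, a neighboring member of the family, whereas the symbol given is SPRR1A. The row named Sprr1a read 7.11 and 7.15 in the same order, a difference of 0.04, and the row named Sprr1b read 4.78 and 4.74, a difference of -0.04.

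The SOSTDC1 row, transcript cluster 10499265, read 6.29 on the log2 scale without the transgene and 5.38 with it. The difference was -0.91, or 1.88-fold lower, and 53.2% of the non-transgenic signal was left. On the row named Sostdc1 the log2 signal was 4.35 and 4.24, a difference of -0.11.

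The KLF4 row, transcript cluster 10473598, read 5.97 on the log2 scale without the transgene and 5.12 with it. The difference was -0.85, from 62.8 to 34.9 on the linear scale, and 55.6% of the non-transgenic signal was left. On the row named Klf4 the log2 signal was 2.75 and 2.73, a difference of -0.02.

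**Figure D1:**
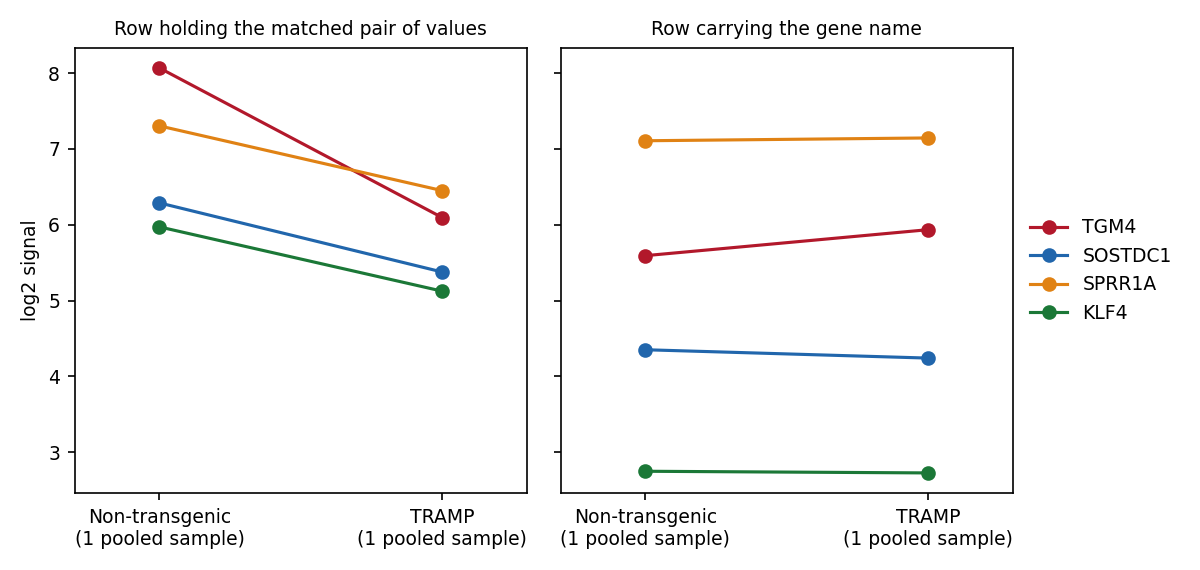
Log2 signal (vertical axis) of the 4 genes in the 1 non-transgenic and the 1 TRAMP sample, on the row that holds the matched pair of values (left) and on the row that carries the gene name (right). Points are single pooled samples, lines join the samples of 1 row, and there are no error bars because each group has 1 sample. On the left all 4 lines go down, with a difference of -1.97 for TGM4, whereas on the right the differences lie between -0.11 and 0.34.

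The differences of SOSTDC1, SPRR1A and KLF4 lay within 0.06 of each other on the log2 scale, and 71 rows of the table had a difference between those of KLF4 and SOSTDC1. TGM4 was 1.06 lower than the next of the 4 genes. All 4 rows passed the 1.5-fold cut-off of the study, which is 0.58 on the log2 scale, and so did 869 of all rows in the same direction, or 2.44%. At 2-fold, TGM4 was the 1 gene past the limit, against 163 of all rows, or 0.458%. Because the genes were taken from a list made with the 1.5-fold cut-off, nothing is read from their count. The lower rows nearest to the cut-off had differences of -0.59 inside it and -0.58 outside it, and the KLF4 row, at -0.85, was the nearest of the 4. In the other direction 2276 rows were past 1.5-fold. The split of 869 lower and 2276 higher rows depended on the scaling. It was 1004 and 2022 after median centring, 1175 and 1437 after subtraction of a loess curve, 1184 and 1404 after quantile normalization, and 377 and 1463 with an offset of 16 on the linear scale.

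**Figure D2:**
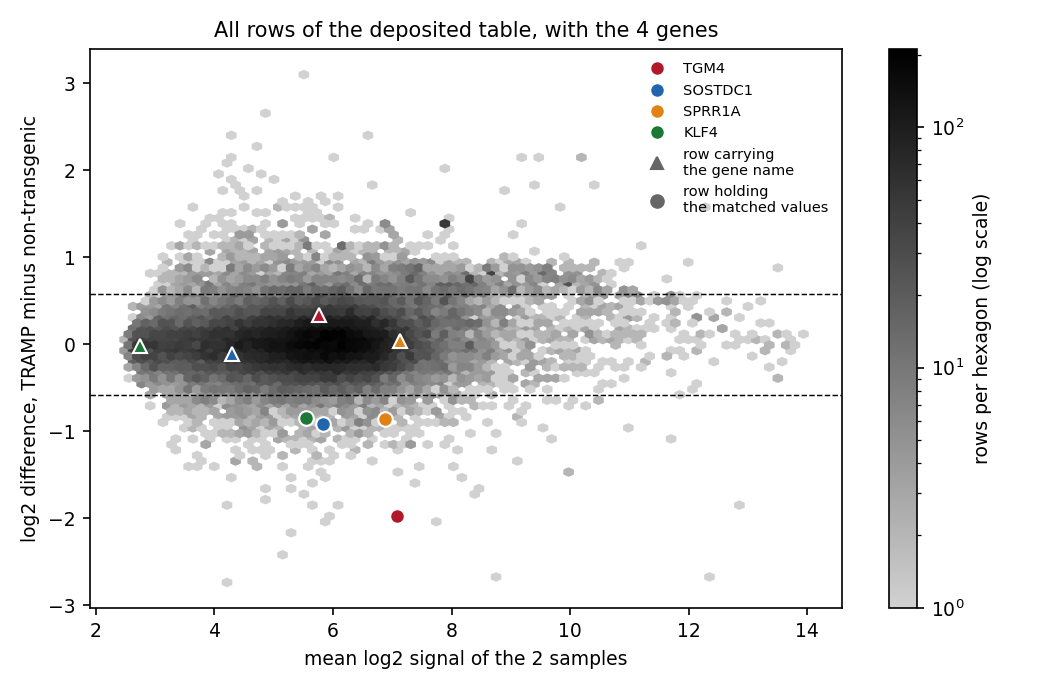
Log2 difference, TRAMP minus non-transgenic (vertical axis), against the mean log2 signal of the samples (horizontal axis) for all 35557 rows, with darker hexagons holding more rows on a log scale. Circles mark the rows that hold the values of the 4 genes, triangles the rows that carry their names, and dashed lines the 1.5-fold cut-off. The circles lie below the lower line, with TGM4 at -1.97, and the triangles lie between the lines.

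The difference of each of the 4 rows was then set beside those of the rows whose mean log2 signal was within 0.25 of its own. For TGM4 these were 2471 rows, with a median difference of 0.05 and quartiles of -0.12 and 0.25. The lowest of them had a difference of -1.60, so that 0 of the 2471 rows were as low as TGM4. The highest had 1.49, and 0 rows were higher by as much as TGM4 was lower.

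The other 3 genes were near the low end of their neighbors but not at it. Of 3418 rows around SPRR1A, 21 had a lower difference, or 0.614%, and one of these is the TGM4 row. Of 6084 rows around SOSTDC1, 32 were lower, or 0.526%. Of 5568 rows around KLF4, 39 were lower, or 0.7%. As deposited, differences of at least the same size in the opposite direction were more frequent. They were on 65 of the rows around SPRR1A, 53 of those around SOSTDC1 and 78 of those around KLF4. These counts were not repeated under the other scalings, on which the split of lower and higher rows depended. A difference of the size seen for these 3 genes was thus found in both directions on rows of similar signal. Rows past 1.5-fold downward made up 2.59% of the neighbors of TGM4, 1.90% of those of SPRR1A, 1.81% of those of SOSTDC1 and 2.12% of those of KLF4.

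**Figure D3:**
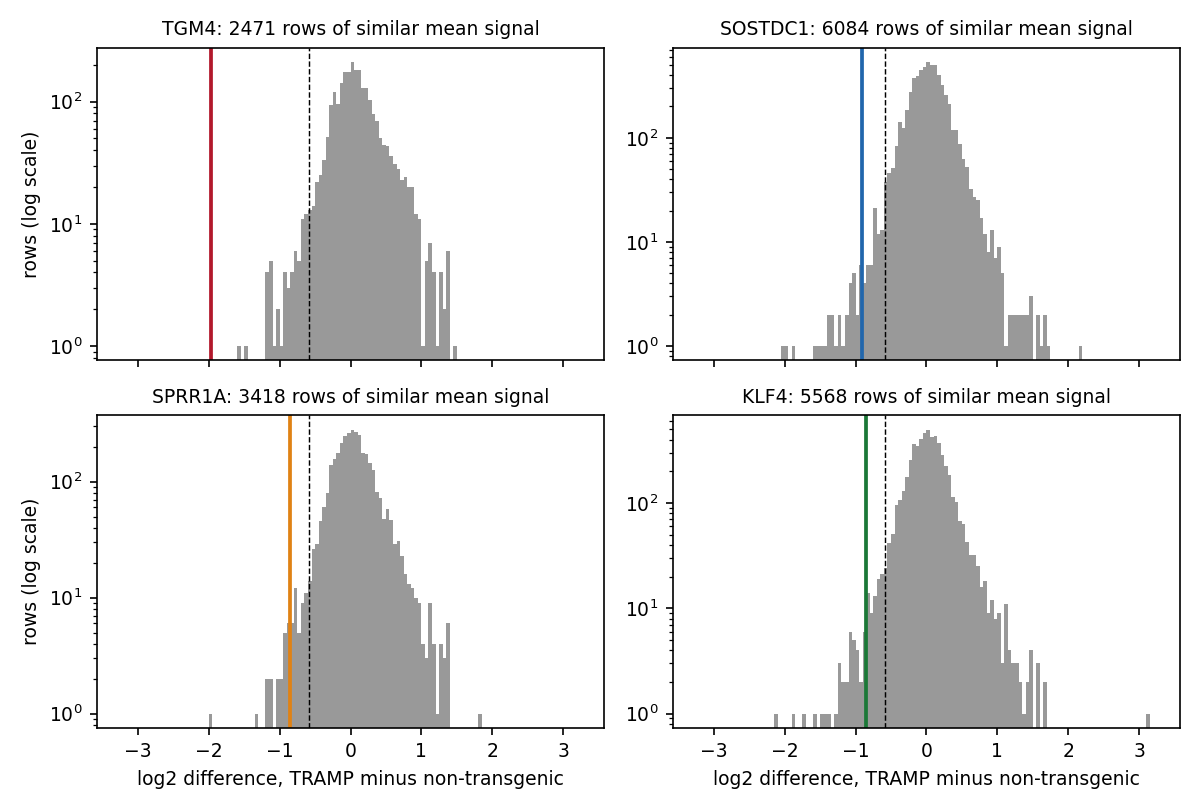
Number of rows (vertical axes, log scale) by their log2 difference, TRAMP minus non-transgenic (horizontal axes), among rows within 0.25 of the mean log2 signal of each gene's row. The colored line is the row of the gene and the dashed line the 1.5-fold cut-off. The TGM4 line lies left of all 2471 rows around it, and the other lines have 21 to 39 rows to their left.

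Rows lower than SOSTDC1, KLF4 and SPRR1A mostly had no gene name. Around SOSTDC1, 29 of the 32 lower rows were without a name, around KLF4 34 of 39, and around SPRR1A 14 of 21. Over the whole table, 8.98% of the 6707 rows labeled unknown were past 1.5-fold downward, against 0.931% of the 25128 rows with a gene name and 0.887% of the 3722 rows whose name is a dash, the class of the SPRR1A row. The rows with signals most like those of each gene, by the distance in both log2 signals over the 2 samples, were labeled unknown as well. The nearest row to KLF4 lay 0.01 away, at 5.97 without and 5.13 with the transgene, and 18 rows lay within 0.1 of it in both samples. The nearest row to SOSTDC1 lay 0.01 away and the nearest to SPRR1A 0.03, each with 8 rows within 0.1. TGM4 had 0 rows within 0.1, and its nearest row, at 7.88 and 6.40, lay 0.36 away. Of the 869 rows of the whole table past 1.5-fold downward, 602 were labeled unknown. What the rows labeled unknown measure was not tested. Shares over all rows and over rows of similar signal therefore mix them with rows that have a gene name.

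The 4 differences kept their direction under other scalings. Under median centring, loess centring, quantile normalization and an offset of 16 on the linear scale, which damps dim rows, all 16 differences of the 4 genes stayed past 1.5-fold downward. TGM4 ranged from -2.14 to -1.75, SOSTDC1 from -0.95 to -0.71, SPRR1A from -0.95 to -0.75 and KLF4 from -0.88 to -0.63, with the offset giving the smallest size in each case. The choice of the row mattered more. On the rows that carry the gene names, 0 of the 4 genes passed 1.5-fold, TGM4 and SPRR1A changed sign, and among rows of similar signal the row named Tgm4 stood at the 89.4th percentile.

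**Figure D4:**
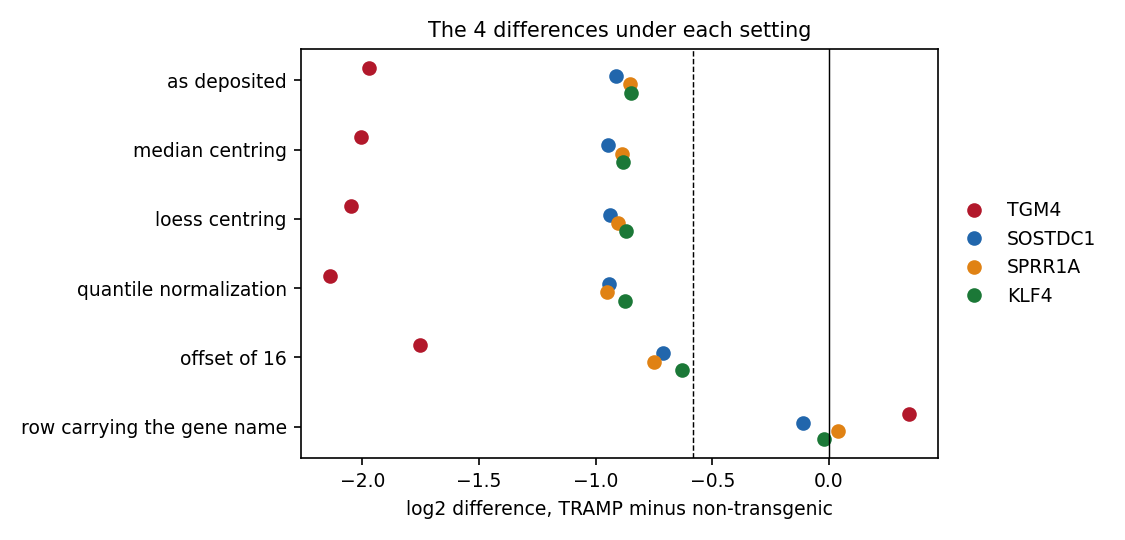
Log2 difference, TRAMP minus non-transgenic (horizontal axis), of the 4 genes under each setting (vertical axis). The solid line is 0 and the dashed line the 1.5-fold cut-off. Points stay left of the dashed line in all settings that use the row holding the matched values, and lie between -0.11 and 0.34 on the row carrying the gene name.

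Related genes could be followed only by the names in the deposited table, so the values that come next describe rows so named. Since 0 of the 4 genes had their listed values on the row of their name, these values may not be those of the named genes. Of 9 rows named for transglutaminases and their relatives, 0 were past 1.5-fold in either direction, with a median difference of -0.03. Over all rows with a gene name, 0.931% were past it downward and 5.35% upward, and over all rows the median difference was 0.03. The lowest of the transglutaminase rows was that named Tgm7, at -0.27. The row named Tgm2, for the tissue transglutaminase found in most cell types, read 5.36 without the transgene and 5.21 with it. Its difference was -0.15. In the cornified envelope list, which holds the small proline-rich proteins with loricrin, involucrin and other envelope proteins, 0 of 27 rows were past 1.5-fold, and the median was 0.04. The row named for loricrin, the main protein of the envelope in skin, had the lowest difference of this list at -0.39.

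Among secreted antagonists of bone morphogenetic proteins and WNT, 1 of 26 rows was past 1.5-fold, and it was lower in TRAMP. This row is named for Notum, an enzyme that inactivates WNT proteins, at 7.10 without the transgene and 5.93 with it, a difference of -1.17. The median of the list was 0.09. Of 17 rows named for KLF factors, 0 were lower and 2 were higher past 1.5-fold. The 2 higher rows are named for Klf5, a factor of proliferating epithelium, and for Klf15. The first read 8.60 without the transgene and 9.36 with it, and the second 4.86 and 5.63. The median of the KLF rows was 0.10.

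**Figure D5:**
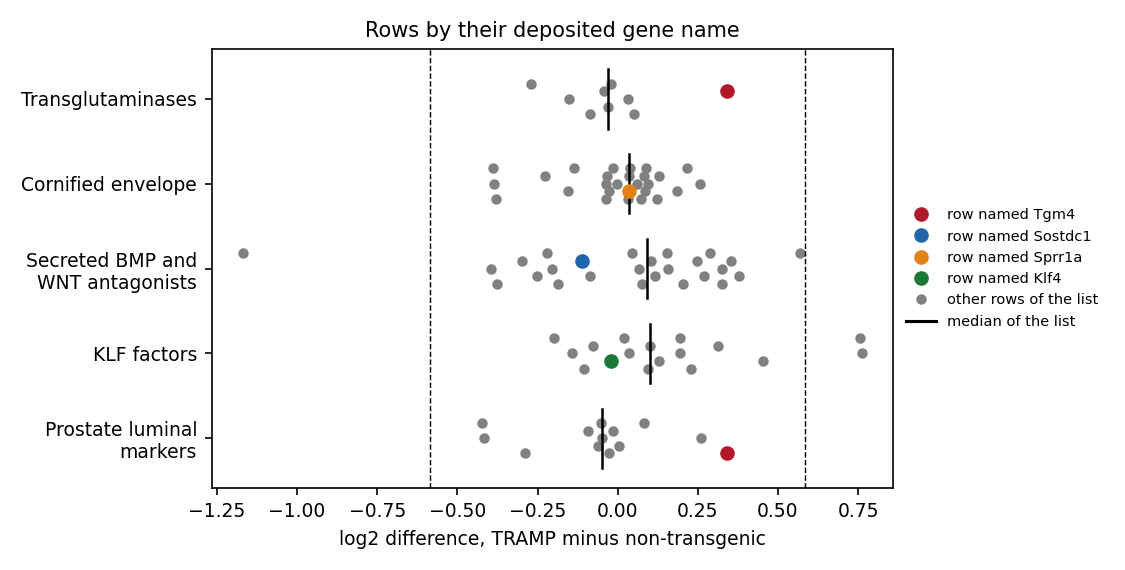
Log2 difference, TRAMP minus non-transgenic (horizontal axis), of rows by their deposited gene name in 5 lists of genes (vertical axis). Each point is 1 row, colored points are the rows named for the 4 genes, black bars are list medians and dashed lines the 1.5-fold cut-off. Apart from Notum at -1.17 and the KLF rows at 0.75 and 0.76, all points lie between the dashed lines.

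Of 13 rows named for markers of prostate luminal cells, among them the row named Tgm4, 0 were past 1.5-fold in either direction as deposited, whereas the row named Krt18, for a luminal keratin, passed it downward after loess centring or quantile normalization. The median difference of the list was -0.05. Their log2 signals lay between 4.50 and 7.77 in the non-transgenic sample. All rows of the table ran from 2.44 to 13.95 in that sample, with a median of 5.73. The row named Pbsn, for probasin, a secretory protein of the prostate whose rat promoter drives the transgene, read 5.15 without the transgene and 4.73 with it. The rows named Krt18 and Pbsn had the lowest differences of the list, each at -0.42. The highest was 0.34, on the row named Tgm4. The summed linear signal of the list was 891 without the transgene and 832 with it. Bright rows weigh most in this sum, and the brightest, named Krt18, fell from 7.77 to 7.35 on the log2 scale. The sum thus does not describe the list as a whole. Whether these markers were present could not be checked, since the table gives no detection limit and the names of its rows are in doubt. In tissue RNA, fewer luminal cells and less RNA per luminal cell cannot be told apart, and the part of tissue make-up in the values of the 4 genes was not tested.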

How the data were processed

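The deposited table gives, for 35557 rows numbered as Affymetrix transcript clusters, the log2 values that the authors obtained for each of the samples. By the methods, arrays were scanned with GeneChip Operating Software and analysed in dChip. Background correction, normalization and genome build are not given in the sources used here. The array type named in the methods is an older design than the numbering of the rows as transcript clusters. The labels describe a small RNA labeling step with Cy3 beside a biotin label, and which one applies is not settled. Another 2 columns of signal intensity, 2 columns comparing the groups and a second deposited table, in which some values stand beside different row numbers, were not used.

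The difference was TRAMP minus non-transgenic log2 signal, with no test because each group has 1 sample. The genes named are the 4 genes, the nearest row to each, and list genes past 1.5-fold or at the ends of a list, with Tgm2, Sprr1b and Pbsn added after their values were seen. The 4 genes and the lists were chosen with earlier results of these data known, and the motifs after the promoters were seen. Alternatives were median centring, loess centring (fraction 0.3), quantile normalization, an offset of 16, cut-offs of 1.2-fold and 2-fold, other windows of signal and rows by gene name. The steps were tested on simulated data with little noise and with shifts well past the cut-off. This checks the code, but not calls at the spread of the real data. Scripts ran under Python 3.11.15 with statsmodels 0.14.6 for the loess curve, matplotlib 3.10.9, pandas 2.3.3 and numpy 2.4.6.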

Additional observations from a re-analysis of the deposited data

How the results depend on the processing

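Of 85 values under the alternatives, 72 kept their direction and their side of the 1.5-fold cut-off or of the lowest 2.5% of rows, or stayed within 1.5 times the reported count. The 85 include 16 rescaled differences of the 4 genes, which were chosen for their low values, and percentiles of the same rows. The tally is therefore a description and no test of the 4 genes. With the row carrying the gene name, TGM4 reversed to 0.34 and SPRR1A to 0.037, SOSTDC1 shrank to -0.11 and KLF4 to -0.022, and the count of the 4 genes past 1.5-fold went from 4 to 0. It was 1 at 2-fold. All rows lower past 1.5-fold, 869 as deposited, became 377 with the offset of 16, 163 at 2-fold, 4465 at 1.2-fold, 394 above the median signal and 234 with a gene name only. Prostate luminal rows past 1.5-fold downward went from 0 to 1 under loess centring and to 1 under quantile normalization, where the row named Krt18 had differences of -0.59 and -0.60. Counts at other cut-offs and over fewer rows differ by construction, whereas the cause of the remaining changes was not tested. As a percentile among neighbors, SPRR1A ranged from 0.27 to 1.33, SOSTDC1 from 0.06 to 0.60 and KLF4 from 0.12 to 0.95, and TGM4 was at 0 in all of them. No paired analysis was possible because there is a single pooled array on either side. The table gives no background level, so how far a dim row lies above background is not known.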

Other observations

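By their deposited names, 2 of 7 rows for seminal vesicle secretory proteins were past 1.5-fold upward, against 5.35% of all rows with a gene name. The row named Svs2, for a main protein of the copulatory plug, read 8.15 on the log2 scale without the transgene and 9.02 with it, and 1 of the rows named for both Svs3a and Svs3b read 5.48 and 6.11. The row named Chga, for a granule protein of neuroendocrine cells, was the 1 of 4 neuroendocrine rows past 1.5-fold, at 7.68 without the transgene and 7.09 with it. It was lower in TRAMP. Of all rows with a gene name, 0.931% were lower in TRAMP past this cut-off. Of 4 rows for basal cell markers, 6 for smooth muscle, 6 for immune cells and 7 for proliferation, 0 were past 1.5-fold in either direction. These values share the limit of the gene names, and their relation to the values of the 4 genes was not tested.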
